A study of Rattus norvegicus and Mus musculus with 61 samples.

Results

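The comparison was injured rat cortex 24 h against 8 h after the blow: 3 arrays at each time, 6 of the 39 rat arrays and of the 61 arrays in the series. All arrays whose labels gave rat, injury and either time were taken. The animals were male Sprague-Dawley rats of 400 ± 25 g under sodium pentobarbital, with no genetic change named in the labels. Injury was a fluid percussion pulse of 2.5 atm, a brief pressure wave delivered to the closed fluid space over the brain. The tissue was a disk of cortex, 7 mm wide, taken from the parieto-occipital region around the impact with the contusion in it, from 1 rat per array. Sham rats had the surgery and the same anaesthetic without the pulse; 2 sham arrays at each time were used as a check. All these rats had therefore been anaesthetised and operated on, and p-values measure the spread between single rats and their arrays. RNA came from whole tissue, so fewer cells of a type and less RNA per cell cannot be told apart.

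A contusion kills and strains cells at once, opens vessels, and starts waves of transcription. Immediate early genes and cytokine genes are known to respond first, in neurons, glia and vessels; neutrophils enter within hours, and monocytes and microglia dominate later. Astrocytes then take on a reactive state, and fibroblasts and pericytes lay down matrix at the edge of the lesion.

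The arrays of 24 h stood apart from nearly all other rat arrays, in injury and in sham alike. Signal is the deposited brightness of a probe set, on a linear scale with a common trimmed mean of 800.6 to 801.2 per array. The median signal was 399.6 to 408.8 on the injury 24 h arrays and 397.6 to 405.9 on the sham 24 h arrays. It was 296.2 to 304.7 on the injury 8 h arrays and 230.3 to 294.6 on the sham 8 h arrays. The injury 24 h arrays had a median correlation of 0.911 to 0.932 with the other 24 h arrays and 0.820 to 0.831 with the rest, over 4091 genes. The 6 antisense control probe sets, which match the opposite strand of control transcripts, averaged 9.0 to 9.25 (log2) at injury 24 h and 9.03 to 9.61 at injury 8 h. Their range was 8.68 to 9.42 at sham 24 h and 6.19 to 8.27 at sham 8 h, so these controls overlapped between the injury times and did not between the sham times. The sample titles of all rat 24 h arrays, injury and sham, carry a letter f after the time, and no other rat title does. The meaning of that letter is not given. Time after surgery and whatever else the 24 h arrays share cannot be told apart with these groups.

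In the injured cortex 250 of 4091 genes differed between the times, 181 higher and 69 lower at 24 h. Called means a Benjamini-Hochberg adjusted p below 0.05 over all genes by limma, a linear model with moderated variances, fitted to all 39 rat arrays. These are 4.42% of genes tested for rises, 1.69% for falls and 6.11% in all, and the called members of each list are read against these shares. An unadjusted p below 0.05 was reached by 931 genes. Every 24 h array lay above every 8 h array in 1309 genes (32%) and below in 588 (14.4%), and 1593 differences were negative. The median of all 4091 genes was itself 0.19 higher at 24 h (log2), so a list's median is read against that value. After quantile normalization, which removes that shift, 243 genes were called, with 113 higher and 130 lower, against the 181 and 69 on the deposited scale. Rises made up 46.5% of calls there and 72.4% here, and 170 genes were called both ways. With each array's median as a covariate, an alternative chosen after the data were seen, 125 were higher and 176 lower (41.5% rises). That median did not overlap between the injury times, so this covariate is closely tied to the time compared. It varied widely within a few other groups, such as sham 4 h (261 to 395.8) and injury 72 h (260.7 to 389.7), which bear on the adjustment.

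Each injury array carried weight in that count. It was 121 without 24 h replicate 1, 105 without 24 h replicate 2 and 111 without 24 h replicate 3. The count was 115 without 8 h replicate 1, 146 without 8 h replicate 2 and 122 without 8 h replicate 3. It was 794 without 4 rat arrays of other groups that stood apart, and 1110 with only the compared groups fitted. Of 80 genes named by rule, 52 were called, and 22 of these kept their call under every alternative fixed at the outset. Those were Aif1, Chrd, Crem, Dnajb14, Dspp, Fst, Gabra4, Ggt5, Gnaz, Grhpr, Grifin, Kcnb2, Mcm5, Mcpt1l1, Mvd, Nf2, Prb3, Rph3a, Sqstm1, Sstr1, Tmod2 and Tpm2. With the array median as a covariate, 31 of the 52 kept their call and 21 lost it. The 22 were not chosen by that covariate, and adjusted p-values with it are not given by gene. For the called genes outside the 22, the adjusted p of each setting fixed at the outset that ended the call stands beside the gene.

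Sham cortex changed in much the same direction. Between sham 24 h and 8 h, 158 genes were called by limma, 132 higher (3.23% of genes tested), 26 lower (0.636%) and 3.86% in all. Its count was 26 without sham 8 h replicate 2, 27 without sham 24 h replicate 1, 3 without sham 24 h replicate 2 and 90 without sham 8 h replicate 1. Of the 181 rises after injury, 179 (98.9%) also had a positive sham difference, and of the 69 falls 61 (88.4%) had a negative one. The sign matched in 74.2% of all genes. The median of the rises was 2.13 in injury and 1.81 in sham, and that of the falls -1.88 and -1.27 (log2). Called the same way in sham were 69 of the rises (38.1% of the 181 and 52.3% of the 132 sham rises) and 12 of the falls (17.4% of the 69 and 46.2% of the 26). Across genes, which are not independent replicates, the changes had a Pearson r of 0.70 and a Spearman rho of 0.67. The r was 0.54 among the 2046 brighter genes and 0.72 among the 2045 dimmer ones. The rises came mostly from dim genes: 159 of 181 lay in the dimmer group, and 100 had every injury 8 h array below 202.5, the level the filter used.

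The change after injury was set against the change after sham by a test of the difference itself. Injury change minus sham change gave 0 called genes by limma (0% of 4091), with a smallest adjusted p of 0.999 and 134 genes (3.28%) at an unadjusted p below 0.05. With only the compared groups fitted, 1 gene was called. So no gene below is shown to have changed in injury otherwise than in sham. Sham values are given beside many genes but not all.

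**Figure D1:**
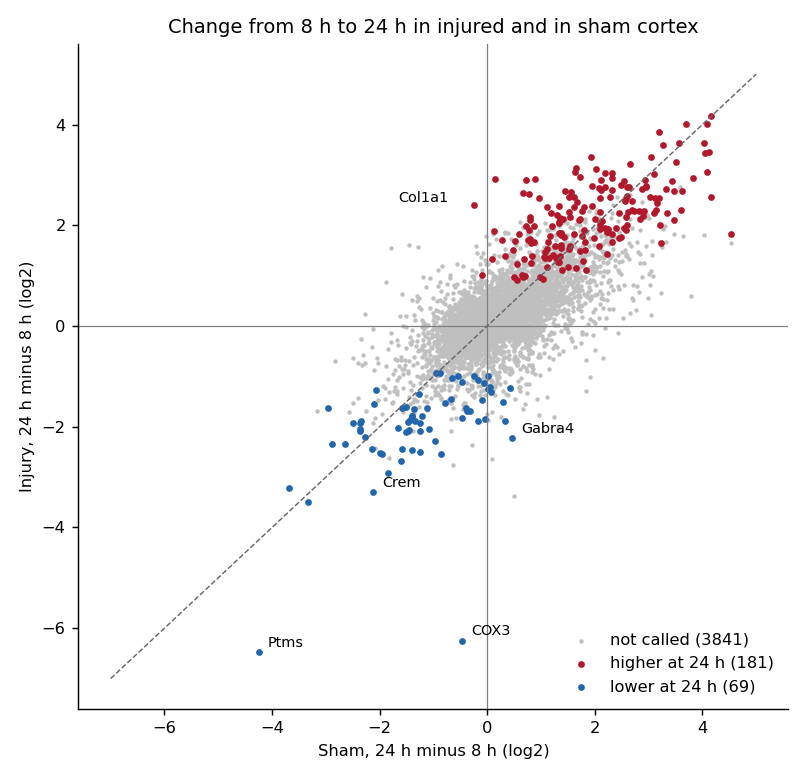
Each point is 1 of 4091 genes, with its 24 h minus 8 h difference (log2) in sham on the x axis and in injury on the y axis; the dashed line marks equal change. Red points (181) were called higher and blue points (69) lower after injury; most lie near the line, while Col1a1, Gabra4 and COX3 had sham differences of -0.25, 0.46 and -0.46.

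The called genes also show which other arrays resemble those of 24 h. Their mean log2 level over injury 8 h was, for the 181 rises, 2.15 to 2.22 on the injury 24 h arrays, which chose them, and 2.10 to 2.26 on the sham 24 h arrays. It was 0.15 to 0.95 on 28 of the 29 arrays of other times and 0.18 to 0.30 at sham 8 h. The exception was injury 72 h replicate 2, at 1.91, with -1.96 for the 69 falls. Injury 72 h replicates 1 and 3 had 0.45 and 0.78 for the rises. That replicate also had a median signal of 389.7 and correlated 0.923 with the 24 h arrays and 0.816 with the rest.

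**Figure D2:**
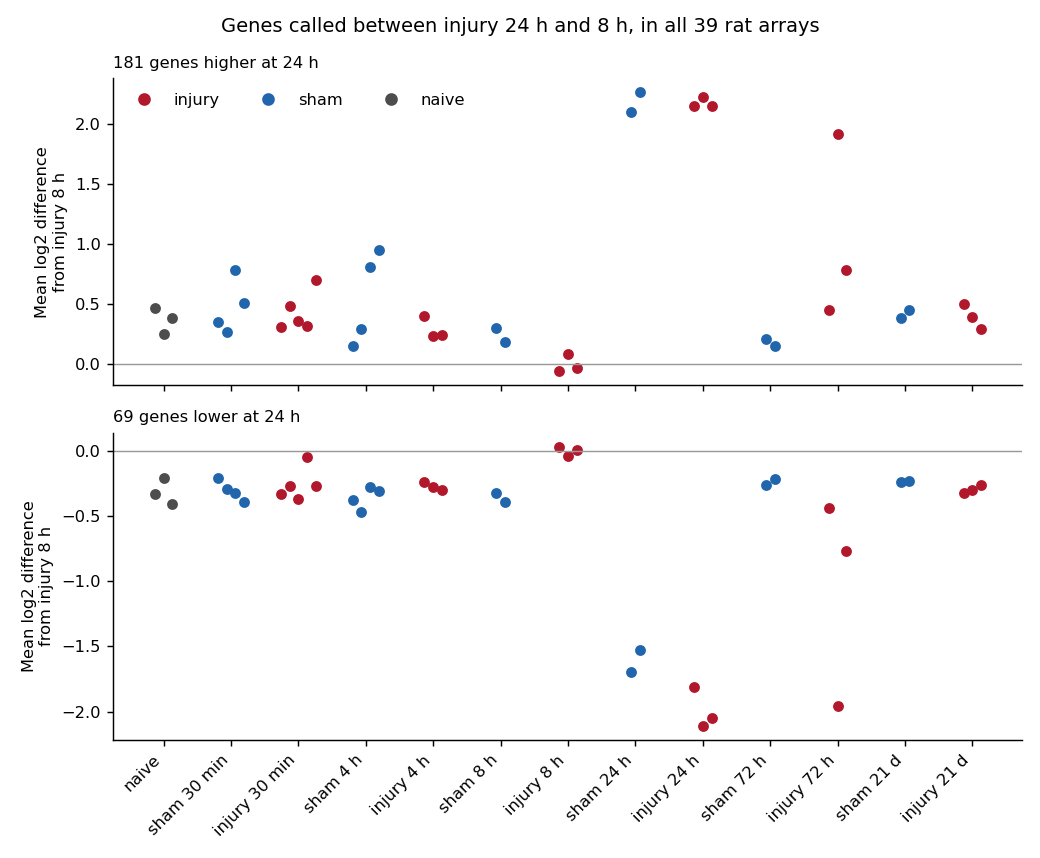
Mean log2 difference from the injury 8 h mean, for the 181 genes called higher (top) and the 69 called lower (bottom) at injury 24 h, in each of 39 rat arrays (1 point per array, by group). Both sham 24 h arrays and 1 injury 72 h array lie with the injury 24 h arrays that chose the genes; all others lie between 0.15 and 0.95 for the rises, apart from injury 8 h itself at -0.06 to 0.08.

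Crem had the smallest adjusted p of all genes and fell. It encodes activators and repressors that bind the cAMP response element, and an internal promoter gives the short repressor that cAMP signalling induces. Crem read 1617, 1584 and 2013 on the injury 8 h arrays and 203, 184.5 and 143 on the injury 24 h arrays. Every 24 h array was below every 8 h array, a log2 difference of -3.30 ± 0.44 (9.88-fold lower, adjusted p = 6.55e-05). Sham arrays read 685 and 422 at 8 h and 103 and 149 at 24 h (-2.12 ± 0.54, adjusted p = 0.0207), and naive arrays 433 to 698. The 8 h injury arrays were thus the high group, above both sham times and naive. The 24 h arrays of injury and of sham all lay below the naive range. Injury 72 h arrays read 653.5, 158 and 371 for replicates 1, 2 and 3. Crem's other probe sets differed by -1.88 and -0.01 after injury and by 0.14 and -1.51 in sham. RefSeq (GRCr8) lists 3 starts for the gene. The 250 bases before each of the 2 internal starts are shown because they hold the element that the encoded proteins bind, TGACGTCA, in capitals:
Crem start 2, chr17:58984547-58984796, plus strand: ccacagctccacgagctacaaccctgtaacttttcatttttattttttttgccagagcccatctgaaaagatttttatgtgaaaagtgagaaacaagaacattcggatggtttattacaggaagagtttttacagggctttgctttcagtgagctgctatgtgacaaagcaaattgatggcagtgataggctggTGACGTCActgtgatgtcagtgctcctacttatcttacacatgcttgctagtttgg
Crem start 3, chr17:58985240-58985489, plus strand: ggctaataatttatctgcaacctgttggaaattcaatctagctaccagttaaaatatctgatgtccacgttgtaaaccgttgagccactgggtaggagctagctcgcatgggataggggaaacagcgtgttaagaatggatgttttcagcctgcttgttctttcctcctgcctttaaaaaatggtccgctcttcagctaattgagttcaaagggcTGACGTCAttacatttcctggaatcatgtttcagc

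The element began 56 bases before start 2 and 35 bases before start 3, and these letters are not in the 250 bases before start 1. Of 33469 rat promoter windows of that length, 531 (1.59%) hold TGACGTCA on either strand, which reads the same on both. The array's probe set is not tied to a start in the files, and a match of letters is a description only.

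Of 32 measured immediate early genes, Crem fell and Egr3 rose, and the list's median was 0.08, against 0.19 for all genes. Egr3, a zinc finger transcription factor of activated neurons, read 64.9, 69.6 and 39.2 at injury 8 h and 492.5, 289 and 378 at 24 h. The times did not overlap (2.75 ± 0.81, adjusted p = 0.0367, and 0.0762 to 0.134 with any 1 array left out). Egr3 was at 36 and 15.8 and then 135 and 153.5 in sham, the same direction (2.08 ± 0.99). Genes of this list that did not pass, chosen after their values were seen, were Fosl1 and Egr1. Fosl1, an AP-1 subunit, read 651, 399.9 and 419 at 8 h and 128, 90.9 and 220.5 at 24 h after injury (-1.80 ± 0.74, adjusted p = 0.14) but 61 and 30.7 and then 139 and 78.7 in sham. Egr1 read 3066, 3391.5 and 3296 and then 2418, 5702 and 7326, overlapping ranges, all below the naive 10666 to 13672.

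Among cytokines and chemokines 2 of 17 measured genes fell, against 69 of all 4091 (1.69%), and 0 rose. The list's median was -0.03 in injury and 0.51 in sham. Ccl3, a chemokine of activated microglia and monocytes, read 979, 938 and 782 at injury 8 h and 130.5, 128 and 538.5 at 24 h. Replicate 3 of 24 h stayed higher than the other two but below every 8 h array (-2.11 ± 0.60, adjusted p = 0.0311, and 0.144 without 24 h replicate 1, 0.166 without 24 h replicate 2, 0.0992 without 8 h replicate 1, 0.0889 without 8 h replicate 2 and 0.0736 without 8 h replicate 3). In sham it read 179.9 and 66.6 and then 46.3 and 20.1 (-1.50 ± 0.74), and at most 22.6 in naive cortex. At each time every injury array read higher than every sham array.

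Il1a, which encodes interleukin 1 alpha, an alarm cytokine released by damaged cells, also fell. It read 583, 336 and 382 at injury 8 h and 152, 111 and 106 at 24 h, with no overlap (-1.80 ± 0.54, adjusted p = 0.0383, and 0.0646 to 0.164 with any 1 array left out, 0.446 with the mean of its probe sets). Sham arrays read 319.9 and 177.5 and then 86.3 and 93.7 (-1.41 ± 0.66), and naive arrays 186.5 to 331, so only the 8 h injury arrays exceeded the naive range. Its other probe sets differed by -1.58 and 1.0 after injury, the latter of opposite sign. The 250 bases before its RefSeq start (GRCr8) are shown for the AP-1 site TGANTCA, in capitals, which immediate early proteins of the Fos and Jun families bind:
Il1a, chr3:136990018-136990267, minus strand: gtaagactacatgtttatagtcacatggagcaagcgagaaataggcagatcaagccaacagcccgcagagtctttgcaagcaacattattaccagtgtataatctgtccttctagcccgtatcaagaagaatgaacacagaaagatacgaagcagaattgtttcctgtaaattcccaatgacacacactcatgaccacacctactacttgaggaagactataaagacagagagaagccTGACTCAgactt

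The match began 12 bases before the start, and 2122 of 33469 windows (6.34%) hold TGANTCA, searched on both strands. The monocyte attractant Ccl2, chosen after its values were seen, was bright at both injury times, with 5313, 5903 and 5034 at 8 h and 2716, 1590.1 and 6113 at 24 h. The ranges overlapped (-0.86 ± 0.68, adjusted p = 0.497), and sham arrays read 156 to 311 and 454 to 527.5. Il1b, the other interleukin 1 gene, read 535, 406 and 433.5 and then 715, 619 and 727, all 24 h arrays above all 8 h arrays but not called (0.59 ± 0.48, adjusted p = 0.507). Sham Il1b went the same way, from 210.3 and 91.7 to 485 and 580.5.

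Receptors of these ligands had 0 of 17 called; the median was 0.33 in injury and 0.78 in sham, and -0.07 in injury after quantile normalization. Cxcr2, the neutrophil receptor for CXC chemokines, read 329, 419.9 and 288 at injury 8 h and 235, 92 and 47.4 at 24 h (-1.76 ± 0.68, adjusted p = 0.116). Sham Cxcr2 read 217 and 28.2 and then 151 and 175, ranges that overlapped. Il1rl1, the receptor of interleukin 33, read 217, 151 and 153 and then 429, 423 and 348.5 (1.22 ± 0.55, adjusted p = 0.177), with 353 to 381 in sham at 24 h. Among 20 measured NF-kB and acute phase genes 0 were called. There Selp, the endothelial selectin that captures leukocytes, read 614, 389 and 444 and then 334, 211 and 172 (-1.04 ± 0.49, adjusted p = 0.192). Orm1, an acute phase plasma protein, read 244, 246 and 157.5 and then 486.5, 424 and 347 (0.97 ± 0.55, adjusted p = 0.299), and 289 to 378.5 in sham at 24 h.

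Sod2 fell and Sqstm1 rose among 31 measured oxidative stress and metallothionein genes (median -0.05). Sod2, the mitochondrial superoxide dismutase, read 2265, 1641 and 2081 at injury 8 h and 1120.5, 566 and 1170.2 at 24 h. All 24 h arrays were lower (-1.13 ± 0.32, adjusted p = 0.0308, and 0.221 without 24 h replicate 2, 0.124 without 8 h replicate 1 and 0.0991 without 8 h replicate 3), and replicate 2 of 24 h reached the sham range. Sham arrays read 878 and 554 and then 708 and 637 (-0.06 ± 0.39), and naive ones at 503 to 710.4. The difference between the injury and sham changes was -1.07 ± 0.51 (unadjusted p = 0.0424, adjusted p = 0.999).

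Sqstm1, the autophagy receptor p62, read 106, 122 and 106 at injury 8 h and 711, 902 and 609 at 24 h. The times were far apart (2.72 ± 0.62, adjusted p = 0.00773), and so were the sham arrays, at 199.7 and 57.6 and then 792 and 779 (2.87 ± 0.76, adjusted p = 0.0249). Heat shock and chaperone genes had 0 of 23 called, with a median of -0.06 (0.05 after quantile normalization). Hsp90ab1, a constitutive HSP90, read 24031, 21488 and 21613 and then 17681, 13048 and 9311 (-0.79 ± 0.30, adjusted p = 0.103), and 0.05 after quantile normalization. Its other probe sets differed by -0.30, -0.01 and -0.22. Hspa1l, a member of the HSP70 family, read 204, 216 and 99 and then 84.6, 72.4 and 52.4 (-1.25 ± 0.76, adjusted p = 0.342). Cell death and p53 genes had 0 of 18 called and a median of -0.01, with 9 differences positive and 9 negative. Bak1, a pore-forming pro-apoptotic protein, read 658, 601 and 390.1 and then 1127, 1149.8 and 1125, with 1071 to 1217 in sham at 24 h. Bcl2l11, another pro-apoptotic gene, read 718, 685 and 577 and then 916, 828.5 and 1226 (0.57 ± 0.45, adjusted p = 0.494).

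**Figure D3:**
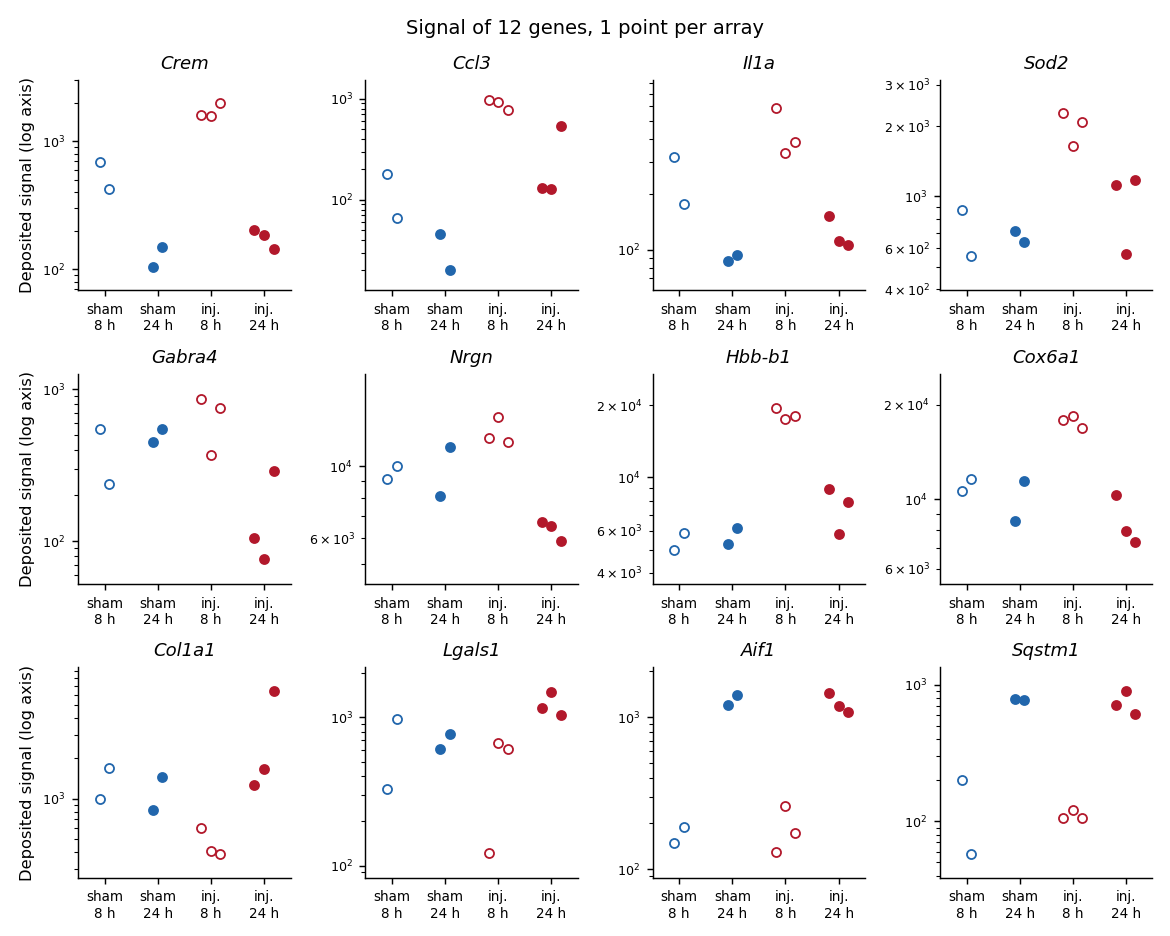
Deposited signal (log axis) of 12 genes, 1 point per array; blue is sham, red injury, open circles 8 h and filled circles 24 h. In the top and middle rows the injury 24 h arrays lie below the injury 8 h arrays for all 8 genes, and in the bottom row above them; Aif1 and Sqstm1 moved as far in sham.

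The summed signal of red blood cell markers was highest at injury 8 h. Of 17 listed red blood cell markers, 4 passed the filter on dim genes, and these summed to 37467 to 48023 at injury 8 h and 16454 to 22883 at injury 24 h. In sham they summed to 12216 to 17359 at 8 h and 15526 to 15547 at 24 h. Their median difference was -1.0. Of the 4, 3 were lower at injury 24 h, and the other had every 24 h array above every 8 h array. Only 1 was called, a fall. That was Hbb-b1, a beta globin, with 19491, 17529 and 18069.8 at injury 8 h and 8975, 5807 and 7859 at 24 h (-1.30 ± 0.39, adjusted p = 0.0399, and 0.0632 to 0.171 with any 1 array left out, 0.349 after quantile normalization). Its sham arrays read 4999.5 and 5878 and then 5268 and 6167 (0.07 ± 0.48). The difference of the changes was -1.38 ± 0.62 (unadjusted p = 0.0328, adjusted p = 0.999). Whether blood in the disk has a part in the other genes lower at 24 h was not tested.

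Of 11 measured neutrophil markers 0 were called. In 5 of them, Anxa1, Il1r2, Lcn2, S100a8 and S100a9, every injury array was above every sham array at both times, against 205 of all 4091 genes; in the other 6, Cxcr2 among them, this did not hold. The list summed to 7858 to 13233 at injury 8 h, 5825 to 10082 at injury 24 h, and at most 3571 in sham. Its median was -0.14, with 4 differences positive and 7 negative, against 2498 and 1593 of all 4091 genes. In 2 members every injury 24 h array lay above every 8 h array, and in 2 below. Of all genes 1309 and 588 did so. S100a9, a calcium-binding protein that fills neutrophils, read 3016, 1529.5 and 2059 at injury 8 h and 683, 405 and 915 at 24 h, without overlap (-1.74 ± 0.68, adjusted p = 0.116). Sham arrays read 147 and 79.3 and 72.1 and 159, well below every injured cortex.

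Aif1 (Iba1), the calcium-binding protein of microglia and macrophages, was the only called gene of 16 in its list and rose. It read 129, 262 and 172 at injury 8 h and 1451, 1190.1 and 1089 at 24 h, with no overlap (2.78 ± 0.42, 6.86-fold higher, adjusted p = 0.000208). Sham arrays rose too, from 149 and 189 to 1209.8 and 1408 (2.96 ± 0.51, adjusted p = 0.00111). Injury 72 h arrays read 508, 1564 and 790.1 for replicates 1, 2 and 3. Its other probe sets differed by 1.05 and 0.36 after injury and by -1.78 and 0.96 in sham. The list's median was 0.14, below that of all genes, and its sum was 25376 to 28852 at injury 8 h and 22855 to 30569 at 24 h. Ctsd, the lysosomal protease cathepsin D, read 2902, 2243 and 2059 and then 778, 487 and 235 (-2.41 ± 0.76, adjusted p = 0.0525). Sham Ctsd went the same way, from 1712 and 2363 to 379 and 593. Its other probe set differed by 0.42; after quantile normalization that one had the higher mean, and the gene's value was 0.46.

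Lymphocyte markers had 0 of 14 called but the highest list median, 0.98 in injury and 1.21 in sham (0.58 in injury after quantile normalization). Klrb1a, a receptor of natural killer cells, read 31.2, 52.5 and 86.3 and then 157, 167 and 191 after injury (1.70 ± 0.72, adjusted p = 0.155). Il2ra, the interleukin 2 receptor alpha chain, read 129, 100.3 and 24.8 and then 235, 265 and 179 (1.58 ± 0.73, adjusted p = 0.19). The list's summed signal was 19044 to 22722 at injury 8 h and 15673 to 20366 at 24 h, so it did not move with the median. Thy1, which neurons also express, is in this list.

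Cfd was the 1 of 14 complement genes that rose (list median 0.63, sham 0.77). It encodes factor D, the serine protease of the alternative pathway. Cfd read 53, 88.9 and 59.8 at injury 8 h and 298, 150.1 and 277 at 24 h (1.82 ± 0.48, adjusted p = 0.0213, and 0.0892 without 24 h replicate 1, 0.0864 without 24 h replicate 3, 0.093 without 8 h replicate 1 and 0.0781 without 8 h replicate 3). Sham Cfd rose too, from 44.7 and 33.1 to 124 and 298 (2.32 ± 0.59, adjusted p = 0.0206). The complement starters C1r and C1s, chosen after their values were seen, read 201 to 295 and 99.7 to 214 at injury 8 h. At 24 h they read 413 to 583 and 359 to 484, not called (adjusted p = 0.146 and 0.155).

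Interferon response and antigen presentation genes had 0 of 15 and 0 of 18 called. Their medians were 0.33 and 0.02, against 0.19 for all genes, and 4 and 8 members were lower at 24 h. In 2 and 3 members every injury 24 h array lay below every 8 h array, and in 5 and 7 above. Of all 4091 genes 588 lay below and 1309 above. Psmb9, an immunoproteasome subunit, read 154, 177 and 188 and then 288, 458 and 559 (1.28 ± 0.43, adjusted p = 0.0706). Cxcl10, an interferon-induced chemokine for T cells, read 206, 166 and 226 and then 403.5, 319 and 543.5 (1.06 ± 0.59, adjusted p = 0.296). Cd86, a co-stimulator on antigen-presenting cells, read 171, 263 and 265 and then 698, 566 and 688.5, and 144 and 127 and then 697 and 903 in sham. RT1-Db1, a class II chain, read 476, 543 and 515.5 and then 623, 1099 and 1196 after injury (0.87 ± 0.33, adjusted p = 0.111). In sham it rose, from 339 and 244 to 1000.2 and 1146 (1.90 ± 0.41, adjusted p = 0.00758).

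Lgals1, the lectin galectin 1 of reactive glia and stroma, was the 1 of 23 reactive astrocyte markers that rose. It read 122, 670.4 and 611 at injury 8 h and 1144, 1472.5 and 1033 at 24 h; the 24 h arrays were all higher, and 8 h replicate 1 was far below the others. The difference was 1.71 ± 0.53 (adjusted p = 0.0486, and 0.104 without 24 h replicate 1, 0.168 without 24 h replicate 2, 0.0961 without 24 h replicate 3 and 0.384 without 8 h replicate 1, 0.117 after quantile normalization, 0.0543 with no filter, 0.0627 with only the compared groups fitted, 0.0532 without the mean trend). Sham Lgals1 read 330 and 971 and then 611 and 776 (0.28 ± 0.65), and injury 72 h arrays read 5240, 2852 and 11976. Vim, the intermediate filament vimentin, chosen after its values were seen, read 2140.4, 1857 and 2287 at injury 8 h and 3999.6, 3763 and 4421 at 24 h. It was not called (0.96 ± 0.40, adjusted p = 0.149), with 1450.5 to 2701 and 1018.5 to 1476 in sham.

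Astrocyte homeostasis genes had 0 of 16 called and a median of -0.62 in injury and 0.45 in sham. Their summed signal was 100873 to 111248 at injury 8 h, 46156 to 74400 at injury 24 h, and 57095 to 66170 and 65564 to 80717 at sham 8 h and 24 h. Of the 16, 12 were lower after injury and 9 had every 24 h array below every 8 h array, against 1593 and 588 of all 4091 genes. Gja1, the astrocyte gap junction protein connexin 43, read 477, 503.6 and 818 and then 114, 107 and 235 (-2.03 ± 0.83, adjusted p = 0.141). Its sham arrays disagreed among themselves, with 588 and 33.8 at 8 h and 208 and 589 at 24 h. Apoe, the lipid carrier, read 21546, 19253 and 19754 and then 12217, 5999 and 4447 (-1.55 ± 0.83, adjusted p = 0.268). Aldoc, the astrocyte aldolase, read 17678, 19908 and 17233 and then 11081, 9556 and 6705 (-1.03 ± 0.59, adjusted p = 0.315). In sham Apoe and Aldoc differed by 0.7 ± 1.01 and 0.2 ± 0.73. Oligodendrocyte and myelin markers also had 0 of 17 called, with a median of -0.29 against 0.20 in sham. Mbp, myelin basic protein, read 26949.9, 26313 and 24408 at injury 8 h and 13410.3, 13608.5 and 9653 at 24 h (-1.10 ± 0.96, adjusted p = 0.552). Sox10, the transcription factor of the lineage, read 425, 427 and 438 and then 143, 236 and 289 (-1.01 ± 0.81, adjusted p = 0.504).

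**Figure D4:**
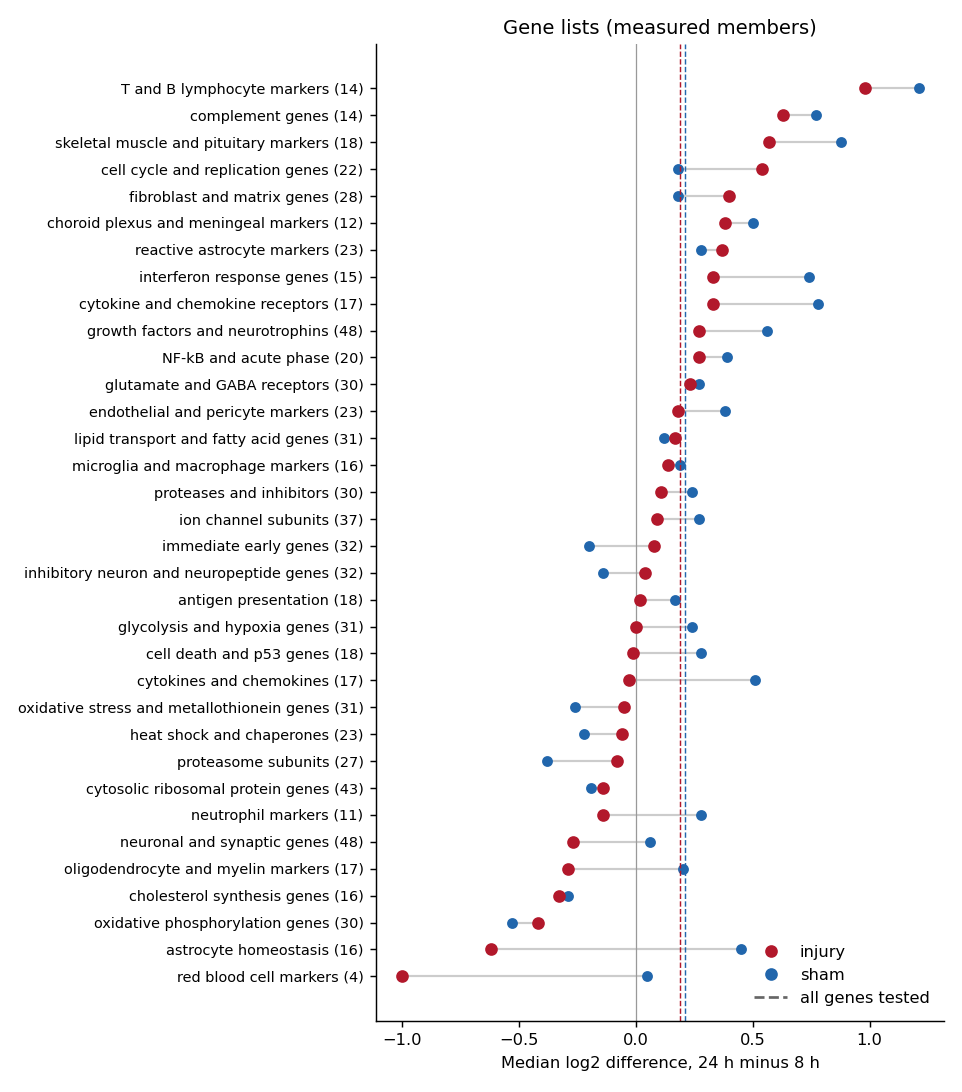
Median log2 difference between 24 h and 8 h over the measured members of 34 gene lists (number in brackets), in injury (red) and sham (blue); dashed lines give all genes tested (0.19 and 0.21). The injury medians of red blood cell, astrocyte homeostasis, myelin and neuronal lists were -1.0, -0.62, -0.29 and -0.27, beside 0.05, 0.45, 0.20 and 0.06 in sham, differences that were not tested; lymphocyte, complement and muscle or pituitary lists lie to the right of the lines in both. With the array median as a covariate the injury median turned to 0.30 for myelin, -0.24 for lymphocyte and -0.23 for muscle or pituitary lists.

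Array medians did not overlap between the injury times, so that covariate is closely tied to the time compared. Other list medians in injury also turned sign with it, among them oxidative phosphorylation (-0.42 to 0.39), neuronal and synaptic (-0.27 to 0.27), ribosomal (-0.14 to 0.40), proteasome (-0.08 to 0.53) and heat shock genes (-0.06 to 0.19). The medians of fibroblast and matrix (0.40 to -0.22), reactive astrocyte (0.37 to -0.28), endothelial (0.18 to -0.77), growth factor (0.27 to -0.27) and choroid plexus genes (0.38 to -0.19) turned the other way. Those of red blood cell (-1.0 to -0.32), astrocyte homeostasis (-0.62 to -0.27), cholesterol (-0.33 to -0.09), complement (0.63 to 0.08) and cell cycle genes (0.54 to 0.17) kept their sign. The median of all genes was 0.09 with the covariate and 0.19 without it. Complement genes thus lay above all genes without the covariate and just below them with it.

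Of 48 measured neuronal and synaptic genes Nrgn fell, while Rph3a and Map1b rose; the list's median was -0.27 in injury and 0.06 in sham. Nrgn encodes neurogranin, a calmodulin-binding protein of dendritic spines. It read 12262, 14215 and 11899.6 at injury 8 h and 6743, 6522 and 5889 at 24 h, below all of naive at 10755 to 13986 (-1.0 ± 0.29, adjusted p = 0.0333, and 0.0707 to 0.114 with any 1 array left out, 0.146 after quantile normalization). Sham arrays read 9162 and 10022 and then 8107 and 11422 (0.01 ± 0.35). The difference of the changes was -1.01 ± 0.46 (unadjusted p = 0.0353, adjusted p = 0.999). Its other probe set differed by -0.90. The summed signal of the list was 178024 to 186706 at injury 8 h and 121670 to 159671 at 24 h, against 187654 to 197767 and 183351 to 183484 in sham.

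Rph3a, rabphilin 3A of synaptic vesicles, read 28.4, 45 and 152 at injury 8 h and 557, 492 and 330.1 at 24 h (2.90 ± 0.55, adjusted p = 0.00155). Sham arrays went from 137 and 92.2 to 497 and 476 (2.12 ± 0.67), and naive arrays read 204 to 368. Map1b, a microtubule protein of growing neurites, read 151.5, 34 and 69.1 and then 480.3, 477 and 704 (2.94 ± 0.85, adjusted p = 0.0338, and 0.0764 without 24 h replicate 1, 0.0875 without 24 h replicate 2, 0.113 without 24 h replicate 3, 0.149 without 8 h replicate 2 and 0.0944 without 8 h replicate 3, 0.0554 after quantile normalization, 0.215 with the mean of its probe sets), and 124 and 16.6 and then 872 and 907 in sham. Map1b's other probe set differed by -0.30. Among inhibitory neuron and neuropeptide genes 1 of 32 fell, Sstr1, a somatostatin receptor. It read 233, 299.9 and 344 at injury 8 h and 49.7, 47.8 and 52.3 at 24 h (-2.53 ± 0.57, adjusted p = 0.00697), and 214 and 47.3 and then 56.5 and 54 in sham. Its other probe set differed by -0.45.

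Of 30 measured glutamate and GABA receptor genes, 3 fell and 1 rose (median 0.23, and -0.04 after quantile normalization). Of all 4091 genes, 69 (1.69%) fell and 181 (4.42%) rose. Gabra4, the alpha 4 subunit of extrasynaptic GABA-A receptors, read 862, 368.5 and 750 at injury 8 h and 105, 76.6 and 291 at 24 h. All 24 h arrays were below all 8 h arrays (-2.23 ± 0.44, adjusted p = 0.00227), and naive arrays read 506 to 806. Sham arrays read 548 and 236 and then 447 and 545 (0.46 ± 0.54). Gabra4 had the smallest p of all genes for the difference between the injury and sham changes, -2.68 ± 0.70 (unadjusted p = 0.000537, adjusted p = 0.999).

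Grin2a, the GluN2A subunit of NMDA receptors, read 679.8, 612 and 899 at injury 8 h and 225.5, 212 and 162.5 at 24 h (-1.86 ± 0.54, adjusted p = 0.0322, and 0.065 to 0.122 with any 1 array left out, 0.328 with the mean of its probe sets). Its sham arrays read 796 and 481 and then 246 and 212 (-1.44 ± 0.66), and its other probe set differed by 0.32 after injury. Grik2, a kainate receptor subunit, read 180, 180.1 and 143 and then 49.7, 40.8 and 42.4 (-1.92 ± 0.56, adjusted p = 0.0367, and 0.0752 to 0.117 with any 1 array left out, 0.292 with the higher floor). The sham arrays of Grik2 read 162 and 225 and then 40.1 and 34.5. Gria4, an AMPA receptor subunit, was the rise, with 57.3, 176 and 96.4 and then 298, 347.5 and 367 (1.76 ± 0.49, adjusted p = 0.0266, and 0.0607 without 24 h replicate 1, 0.0875 without 24 h replicate 2, 0.09 without 24 h replicate 3, 0.168 without 8 h replicate 1 and 0.0828 without 8 h replicate 3, 0.149 after quantile normalization). It read 174 and 208 and then 569.7 and 462 in sham. The other probe sets of Gria4 differed by 1.70 and 2.65. Of 37 ion channel subunits Kcnb2, a delayed rectifier potassium channel, rose from 28.1, 100.3 and 29.3 to 282, 272.5 and 265 (2.54 ± 0.51, adjusted p = 0.00227), and from 82.5 and 34.9 to 315.5 and 331 in sham.

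Of 30 measured oxidative phosphorylation genes 2 fell, and the median was -0.42 in injury and -0.53 in sham; 17 of 30 had every injury 24 h array below every 8 h array, against 588 of all 4091 genes (14.4%). Ndufv2, a complex I subunit, read 5328, 5648 and 6415.5 at injury 8 h and 3145, 2589.7 and 2822 at 24 h (-1.02 ± 0.27, adjusted p = 0.0205, and 0.0875 without 24 h replicate 2, 0.0635 without 24 h replicate 3, 0.0536 without 8 h replicate 2 and 0.0867 without 8 h replicate 3, 0.0503 after quantile normalization). Sham arrays read 6423 and 3002 and then 2893.5 and 2663 (-0.66 ± 0.33). Cox6a1, a subunit of cytochrome c oxidase, read 17924.5, 18489.9 and 16905 and then 10285, 7896 and 7314 (-1.08 ± 0.32, adjusted p = 0.0376, and 0.0522 to 0.133 with any 1 array left out, 0.204 after quantile normalization, 0.121 with the mean of its probe sets). In sham it read 10648 and 11575 and then 8552 and 11452, and its other probe sets differed by -0.12 and -0.71.

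COX3, the mitochondrially encoded oxidase subunit, fell, but its injury 24 h arrays disagreed. They read 13324, 83.8 and 0.1, against 28757.5, 21559 and 25476 at injury 8 h and 9405 and 10689 and then 5239 and 10102 in sham. The difference of -6.25 ± 1.55 (adjusted p = 0.014, and 0.0948 without 24 h replicate 2, 0.121 without 24 h replicate 3 and 0.052 without 8 h replicate 1) rests on 24 h replicates 2 and 3. Ptms, parathymosin, the largest fall, read 10732, 12275.5 and 9826.5 and then 1788, 28.6 and 0.2 (-6.47 ± 1.46, adjusted p = 0.00715, and 0.059 without 24 h replicate 2 and 0.0566 without 24 h replicate 3). Its readings of 28.6 and 0.2 were under the floor too. Its other probe sets differed by 0.05 and 0.27, and sham read 5677 and 6852 and then 36.8 and 2916. Injury 72 h replicate 2 was low in both, with 19.5 for COX3 and 381 for Ptms.

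Mvd, mevalonate decarboxylase, fell as 1 of 16 cholesterol synthesis genes (median -0.33, sham -0.29). It read 699, 739 and 884 at injury 8 h and 121, 147 and 128 at 24 h (-2.55 ± 0.48, 5.84-fold lower, adjusted p = 0.00149). Sham arrays read 584 and 818 and then 201.5 and 156 (-1.96 ± 0.58, adjusted p = 0.0518), the same direction. Acadm, medium-chain acyl-CoA dehydrogenase, was the 1 of 31 lipid genes that fell, with 305, 114 and 244 and then 48, 49.3 and 50.6 (-2.05 ± 0.59, adjusted p = 0.0319, and 0.0838 without 24 h replicate 1, 0.0926 without 24 h replicate 2, 0.0822 without 24 h replicate 3, 0.149 without 8 h replicate 1 and 0.113 without 8 h replicate 3, 0.134 with the higher floor). Sham Acadm went the same way (-2.37 ± 0.72). Glycolysis and hypoxia genes had 0 of 31 called; Pgam2, the muscle-type phosphoglycerate mutase, read 78.5, 81.9 and 67.9 and then 559, 526 and 469 (2.77 ± 0.90, adjusted p = 0.0594), and 634 to 702 in sham at 24 h. Of 43 ribosomal protein genes Rpl30 rose, from 90.7, 56.5 and 288.5 to 867, 981 and 751.5 (2.92 ± 0.79, adjusted p = 0.0232, and 0.0646 without 24 h replicate 1, 0.0873 without 24 h replicate 2, 0.0597 without 24 h replicate 3, 0.0876 without 8 h replicate 1 and 0.119 without 8 h replicate 2). The ribosomal list's median was -0.14, and 0.25 after quantile normalization. Proteasome subunits had 0 of 27 called, and Psme2, an activator subunit, read 895, 509 and 813 and then 488, 284 and 446 (-0.86 ± 0.44, adjusted p = 0.236).

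The collagen genes Col1a1, Col1a2 and Col5a2 rose and were the 3 called genes of 28 in the fibroblast and matrix list (median 0.40, sham 0.18). Of all 4091 genes, 181 (4.42%) rose. Col1a1, a chain of type I collagen, read 601, 403 and 383.5 at injury 8 h and 1275, 1669.9 and 6407 at 24 h. Replicate 3 of 24 h was the highest by far, and no array overlapped (2.40 ± 0.56, adjusted p = 0.00861, and 0.0979 without 24 h replicate 3). Sham arrays read 995 and 1702 and then 824 and 1449 (-0.25 ± 0.68), and naive arrays 813 to 2052. Injury 8 h was therefore the low group, below sham and naive. The difference of the changes was 2.65 ± 0.88 (unadjusted p = 0.00493, adjusted p = 0.999). The other probe sets of the gene differed by 0.94, 0.75 and 0.99 after injury and by 0.40, 0.54 and 0.10 in sham.

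Col1a2, the partner chain, read 391, 392 and 309 at injury 8 h and 1034, 971 and 1745 at 24 h (1.74 ± 0.49, adjusted p = 0.0304, and 0.059 to 0.141 with any 1 array left out). Its sham arrays read 536 and 458 and then 766 and 970.2 (0.80 ± 0.60). Col5a2, a chain of type V collagen, which forms fibrils with type I, read 199.6, 214 and 218 and then 499.7, 487 and 519.6 (1.25 ± 0.36, adjusted p = 0.0322, and 0.0832 to 0.101 with any 1 array left out, 0.0889 after quantile normalization). Sham Col5a2 read 229 and 169.8 and then 346 and 344. Other fibrillar collagens, chosen after their values were seen, did not pass. Col5a1, the partner of Col5a2, read 632, 452 and 555 and then 232, 233 and 346, every 24 h array lower (-1.03 ± 0.43, adjusted p = 0.146). Col3a1, type III collagen, read 576, 350 and 706 and then 900.4, 799.5 and 838 (0.69 ± 0.32, adjusted p = 0.19). At injury 72 h the arrays read 3799, 4289 and 5682 for Col1a1, 1204, 1584 and 1735 for Col1a2 and 423, 813 and 706 for Col5a2. Choroid plexus and meningeal markers, which include Col1a1, had 2 of 12 rises. The other was Slc6a13, a GABA transporter of the meninges, with 64.1, 88.1 and 153 and then 391, 302.5 and 231 (1.66 ± 0.47, adjusted p = 0.03, and 0.119 without 24 h replicate 1, 0.0894 without 24 h replicate 2, 0.0502 without 24 h replicate 3, 0.154 without 8 h replicate 1 and 0.089 without 8 h replicate 2, 0.186 after quantile normalization). That list summed to 15404 to 50500 at injury 8 h and 21624 to 31591 at 24 h.

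Growth factor signalling had 3 rises among 48 measured genes (median 0.27, sham 0.56), beside 4.42% of all genes. Each had a sham change of the same sign, as did 98.9% of all called rises. Fst, follistatin, which binds activin, read 117, 58.9 and 116 at injury 8 h and 547, 903.5 and 1046.5 at 24 h (3.11 ± 0.57, adjusted p = 0.00121). Sham arrays went from 181 and 289 to 1012.5 and 860.5 (2.03 ± 0.70). Its other probe set differed by 0.59. Tgfbr1, the type I receptor of TGF-beta, read 64.1, 63.4 and 65.1 and then 206.5, 421 and 367 (2.31 ± 0.65, adjusted p = 0.0301, and 0.123 without 24 h replicate 2, 0.0983 without 24 h replicate 3, 0.0861 without 8 h replicate 1, 0.0822 without 8 h replicate 2 and 0.0834 without 8 h replicate 3). In sham Tgfbr1 rose from 56.7 and 81.3 to 409 and 475 (2.70 ± 0.80, adjusted p = 0.0487). Fgfr2, a fibroblast growth factor receptor, read 253, 185 and 332.5 and then 911.5, 1042 and 806 (1.87 ± 0.43, adjusted p = 0.00797, and 0.198 with the mean of its probe sets), and 297.5 and 169 and then 1109 and 1019 in sham. Its other probe sets differed by 0.61, -0.13 and 0.86.

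Endothelial and pericyte markers had 0 of 23 called and a median of 0.18, near the 0.19 of all genes. Of the 23, 13 were higher and 10 lower at injury 24 h. In 7 every 24 h array lay above every 8 h array and in 5 below, against 1309 and 588 of all 4091 genes. Vwf, von Willebrand factor, read 54, 59 and 68 and then 391, 278 and 298 (2.41 ± 0.81, adjusted p = 0.068), with 75.4 and 66.2 and then 303 and 420.2 in sham. Ocln, the tight junction protein occludin, read 200.4, 121 and 112 and then 457, 537 and 596 (1.92 ± 0.62, adjusted p = 0.0591), with another probe set at 0.13. Proteases and inhibitors had 0 of 30 called (median 0.11, sham 0.24). Ctsc, cathepsin C, which activates granule proteases, read 410, 91.8 and 99.1 and then 500.2, 607 and 415 (1.69 ± 0.59, adjusted p = 0.0803), and its other probe set differed by -0.30. Sham Ctsc went from 90.9 and 41.3 to 229 and 345.5. Cell cycle genes had 1 rise among 22, against 181 of all 4091 genes (4.42%). Of the 22 differences 20 were positive (median 0.54, sham 0.18), against 2498 of all 4091. Mcm5, a subunit of the replicative helicase, read 17.4, 54.2 and 91 at injury 8 h and 697, 715 and 559.6 at 24 h (3.60 ± 0.64, adjusted p = 0.00083). Sham arrays rose from 57.9 and 40.9 to 436 and 501 (3.26 ± 0.78, adjusted p = 0.0147). Mcm6, its partner, chosen after its values were seen, read 263, 428 and 354 and then 591, 739 and 644 after injury (0.94 ± 0.33, adjusted p = 0.0795), and 337 and 428.5 and then 361 and 287 in sham.

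Most of the largest rises were dim at 8 h and shared with sham, and several are best known from tissues other than cortex. Prb3, a proline-rich salivary protein, read 20.9, 38.6 and 28.3 at injury 8 h and 591.5, 667 and 580.3 at 24 h (4.17 ± 0.80, adjusted p = 0.00178), and 38.1 and 26 and then 657.5 and 587 in sham. Grifin, a lens galectin, read 37.8, 84 and 25.4 and then 812.5, 842 and 635 (4.02 ± 0.76, adjusted p = 0.00155). Dspp, a dentin protein, read 16.9, 17.8 and 22.1 and then 557, 518 and 482; the 8 h arrays were all at or under the floor of 32.1, so its rise was at least 16.2-fold (adjusted p = 0.0001). Another probe set of Dspp differed by 2.72 after injury and 3.01 in sham. Injury 72 h arrays read 32.5, 457 and 154 for Prb3, 66.9, 692 and 135.5 for Grifin and 13.6, 317 and 26.1 for Dspp, high only in replicate 2. Skeletal muscle and pituitary markers, for tissues outside the disk, had 18 of 27 measured and 0 called, and summed to 8731 to 10164 at injury 8 h and 13710 to 14683 at 24 h. They summed to 8256 to 9074 and 14249 to 17248 in sham, so the sums were higher on the 24 h arrays of both treatments. Their part in the rises was not tested. In that list Myh6, a cardiac myosin, read 58, 52.8 and 81.9 and then 881, 244 and 263 (2.60 ± 0.84, adjusted p = 0.058). Pomc, the pituitary hormone precursor, read 74.6, 104 and 211 and then 276.5, 663 and 663 (2.07 ± 0.80, adjusted p = 0.113).

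Other genes among the 12 largest rises covered varied functions, and most also had large sham changes. Nf2, the tumour suppressor merlin, read 49.9, 33 and 36.8 at injury 8 h and 566, 439 and 460.4 at 24 h (3.63 ± 0.59, adjusted p = 0.000303; sham 4.04 ± 0.73). Tmod2, a neuronal cap of actin filaments, read 15.8, 63.8 and 59.1 and then 648.5, 615 and 574 (3.63 ± 0.60, adjusted p = 0.000315; sham 3.57 ± 0.74). Chrd, chordin, an inhibitor of bone morphogenetic proteins, read 98.3, 65.4 and 12.8 and then 761, 706 and 511 (3.46 ± 0.69, adjusted p = 0.00258; sham 4.12 ± 0.85). Each had a sham difference of like size. Grhpr, a glyoxylate reductase, was the brightest of them, with 261, 278 and 243 and then 2459, 3648 and 2472 (3.43 ± 0.56, adjusted p = 0.000303; sham 4.05 ± 0.69). Its other probe set differed by 0.86 after injury and 1.92 in sham. Tpm2, a tropomyosin of muscle, was under the floor at 8 h, with 9.5, 14.3 and 11.9, and read 326, 324 and 332 at 24 h (at least 10.2-fold higher, adjusted p = 0.00178). Dnajb14, a co-chaperone, differed by 3.25 ± 0.73 (adjusted p = 0.00663). Abcb11, the bile salt pump of liver, differed by 3.35 ± 0.97 (adjusted p = 0.0335, and 0.0759 to 0.112 with any 1 array left out), and by 3.05 ± 1.19 in sham. Mcpt9, a mast cell protease, differed by 3.85 ± 1.02 (adjusted p = 0.0206, and 0.0968 without 24 h replicate 2, 0.0536 without 24 h replicate 3, 0.0689 without 8 h replicate 1 and 0.0688 without 8 h replicate 3), and its sham 24 h arrays read 31.3 and 2876.

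The remaining large falls included neuronal, bone, lens and mast cell genes. Gnaz, a G protein alpha subunit of neurons, read 986, 1099.7 and 693 at injury 8 h and 88.2, 134 and 79.5 at 24 h (-3.21 ± 0.49, adjusted p = 0.000225). Sham Gnaz fell from 872 and 1014 to 91.3 and 59.4 (-3.68 ± 0.60, adjusted p = 0.000794), and its other probe set differed by 0.42 after injury. Clec11a, a secreted lectin of bone, read 557, 357 and 237 and then 22.3, 24.6 and 23.9, all under the floor (at least 11.3-fold lower, adjusted p = 0.00967, and 0.0549 without 8 h replicate 1, 0.11 with the higher floor). Sham Clec11a went from 389.7 and 283.4 to 26.1 and 33.7. Ggt5, which cleaves leukotriene C4, read 481, 497 and 727 and then 113, 108 and 86.6 (-2.46 ± 0.47, adjusted p = 0.00183). Injured cortex exceeded sham in Ggt5 at 8 h, where sham read 267 and 276.5. Mcpt1l1, a mast cell protease, read 4016, 4909.5 and 3947 and then 589.7, 1565 and 447.5 (-2.52 ± 0.53, adjusted p = 0.00366; sham -2.0 ± 0.65). Cdkn2b, the cell cycle inhibitor p15, read 274, 175 and 264 and then 30.8, 51.9 and 42 (-2.50 ± 0.57, adjusted p = 0.00797, and 0.0619 with the higher floor). In sham Cdkn2b differed by -1.26 ± 0.70. Nell1, a secreted protein of bone formation, differed by -2.68 ± 0.83 (adjusted p = 0.0473, and 0.076 to 0.138 with any 1 array left out, 0.0568 with no filter, 0.202 with the higher floor, 0.0524 without the mean trend). Crybb2, a lens crystallin, differed by -2.92 ± 0.68 (adjusted p = 0.0086, and 0.0504 without 24 h replicate 1, 0.757 with the mean of its probe sets), with other probe sets at 0.75 and 1.37. In sham Crybb2 differed by -1.85 ± 0.83.

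Of the 250 called genes 18 had an unadjusted p below 0.05 for the difference of the changes, none an adjusted p below 0.999. Beside COX3, Nrgn, Hbb-b1, Col1a1, Sod2 and Gabra4, they include genes chosen here after their values were seen. Sdc4, the proteoglycan syndecan 4 of stressed and adhering cells, read 9989.7, 8079.8 and 8387 at injury 8 h and 3586, 4289.7 and 3341 at 24 h (-1.24 ± 0.29, adjusted p = 0.00884). Sham Sdc4 read 1978 and 2464 and then 2961 and 2993, and naive 2551 to 3218, so the injury 24 h arrays lay between injury 8 h and naive (difference of the changes -1.67 ± 0.46, unadjusted p = 0.000897).

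Nrn1, neuritin, an activity-induced promoter of neurites, read 8356, 9112.5 and 5773 at injury 8 h and 2262, 3728 and 3811 at 24 h (-1.26 ± 0.32, adjusted p = 0.0163). Its sham arrays read 6908 and 4459 and then 5393 and 5899.5, and naive ones 5930.2 to 6784. Ptgir, the prostacyclin receptor, read 1443, 1888 and 1525 and then 373, 484 and 461 (-1.88 ± 0.54, adjusted p = 0.0322), with 902 and 837 and then 1193 and 1001 in sham. Myh11, smooth muscle myosin, rose, with 38, 52.9 and 58 at injury 8 h and 367, 356 and 378 at 24 h (2.91 ± 0.46, adjusted p = 0.000293). Sham Myh11 read 196 and 212.5 and then 275 and 414, and naive 237 to 382, so it was the injury 8 h arrays that lay below the rest. Nrp1, the semaphorin and VEGF receptor neuropilin 1, likewise read 182, 270 and 182 at injury 8 h and 394, 376 and 496 at 24 h (1.01 ± 0.31, adjusted p = 0.0453), against 374 to 449 in naive cortex.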

How the data were processed

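RNA from 39 rat cortex disks had been hybridised to single-colour arrays of 8799 probe sets, 59 of them controls. The deposited intensity values are linear and share a trimmed mean per array, so the authors had scaled each array; the software is not given in the sources used here. Signals were raised to a floor of 32.1 (the pooled 10th percentile) and put on the log2 scale. Probe sets with 1 gene symbol and a signal above 202.5 (the 40th percentile) on at least 3 arrays were kept, and the brightest of each gene was used, which left 4091 genes. Groups were fitted over all 39 arrays with limma 3.58.1 (R 4.3.3; 26 residual degrees of freedom, eBayes with a mean trend) and p-values adjusted by Benjamini-Hochberg; ± is the standard error of the fit. The method was tested on simulated data. The precision is limited by the number of arrays. The comparison, gene lists and tests were chosen with earlier results of these data known. Genes named by rule were the 12 largest rises and 12 largest falls of at least 2-fold without overlap of arrays, up to 4 called members per list, and for lists with no call up to 2 members whose arrays did not overlap. Of 7018 probe sets with 1 symbol, 6994 were updated through RefSeq by gene ID. Alternatives varied the normalization, floor, filter, probe set rule, replicate block, arrays fitted and trend; arrays were left out in turn for genes named by rule and for the counts. Mouse arrays were not used here.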

Additional observations from a re-analysis of the deposited data

Results flagged for a closer look

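Injury 72 h replicate 2, an array of a time that the comparison does not use, carried the levels of the 24 h arrays. Its mean over the 181 called rises was 1.91 above injury 8 h (log2), where the other 28 arrays of other times lay between 0.15 and 0.95. Its mean over the 69 called falls was -1.96, against -0.77 to -0.05 on those 28 arrays. Without this array, an alternative chosen after seeing the data, limma called 287 genes for injury 24 h against 8 h and 212 for sham. The cause was not tested.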

How the results depend on the processing

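With 1 array left out the count of called genes ranged from 105 to 146 for injury (250 with all arrays), from 3 to 90 for sham (158) and was 0 to 0 for the difference of the changes. With only the compared groups fitted it was 1110 for injury, 409 for sham and 1 for the difference; without the 4 arrays that stood apart it was 794 and 641. The array median as a covariate, chosen after seeing the data, left 29 sham genes. Without injury 72 h replicate 2, also chosen after seeing the data, it was 287 and 212. With the replicate block the count was 359 for injury, 253 for sham and 0 for the difference. Same-numbered 24 h and 8 h injury arrays had deviations correlated at 0.08, 0.11 and 0.07, each 24 h array highest with its own number. These are small values over genes, which are not independent replicates, and cannot decide whether the numbers pair animals. The numbers were not taken as pairs. The cause of these shifts was not tested. All other settings stayed within 1.5 times the count with all arrays, and no called gene named by rule changed sign. Dim genes limit the comparison: 100 of the 181 rises were below 202.5 on every injury 8 h array.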
